A study of Sus scrofa with 4 samples.

Results

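Fibroblasts of the pig meniscus that carried transcripts of KERA, MYOC and CPXM2 are described here from single-cell RNA sequencing. A cell barcode was a member if it had 200 or more genes and at least 3 UMIs (unique molecular identifiers, each standing for 1 captured transcript) of KERA, MYOC and CPXM2 together. It also had to have at most 1 UMI of PI16 and MFAP5, at most 4 of CXCL14, CXCL12 and MME, at most 2 of CILP, CILP2 and OMD, at most 1 of PECAM1, PLVAP and VWF, at most 1 of ACTA2, MYH11 and RGS5 and at most 2 of C1QA, C1QB and C1QC, with COL2A1 under 0.5% of its UMIs. These limits left out cells with transcripts of other fibroblasts, of fibrochondrocytes and chondrocytes, of vessels and of macrophages. Of 27782 barcodes, 458 were members. The members were chosen by measured counts, so every comparison of members with other barcodes is a description without a test.

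The meniscus is the fibrocartilage pad of the knee. The study profiled cells of pig (Sus scrofa) menisci in 4 libraries, which are the white zone of the medial meniscus, the white zone of the lateral meniscus, the red zone of the medial meniscus and the red zone of the lateral meniscus. In textbook anatomy the white zone is the inner part without vessels and the red zone the vascularised outer rim. Per the labels, the synovium was dissected off, and cells were freed by Pronase, followed by Collagenase P, and strained. The labels name no treatment, strain, age or animal and do not say whether animals were pooled. Each zone of each meniscus is 1 library, so a difference between libraries has no replicate check. An exact permutation of 2 against 2 libraries could not go below a p of 0.33.

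Keratocan, the product of KERA, is a small leucine-rich proteoglycan best known from the cornea, where it takes part in the spacing of collagen fibrils. Myocilin, from MYOC, is a secreted glycoprotein with an olfactomedin domain that is known from the trabecular meshwork of the eye and from connective tissues. CPXM2 encodes a secreted member of the metallocarboxypeptidase family. Fibroblasts of dense connective tissue make collagen I fibres and the proteoglycans and glycoproteins that bind them, and tendon cells are such fibroblasts, known for the membrane protein tenomodulin (TNMD) and the transcription factors scleraxis (SCX) and Mohawk (MKX).

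The members came almost entirely from the red zone. There were 2 members among 7807 barcodes of the medial white library and 6 among 7382 of the lateral white library, against 272 among 6840 of the medial red library and 178 among 5753 of the lateral red library. Their share was 0.0256% in the medial white library (exact 95% binomial interval 0.0031 to 0.0925) and 0.0813% in the lateral white library (0.0298 to 0.177). In the red zone it was 3.98% in the medial library (3.53 to 4.47) and 3.09% in the lateral library (2.66 to 3.57). The white and red intervals lay far apart, while those of the medial and lateral red libraries overlapped. These intervals cover counting error only. Summed over all barcodes, with no limit on other cell types, each of the 3 genes that chose the members was lower in both white than in both red libraries, while the order of medial and lateral within a zone differed between genes. KERA was at 22.4 and 3.57 CPM (UMIs of the gene per 1000000 UMIs) in the medial and lateral white libraries, against 126 and 92.4 CPM in the medial and lateral red libraries. MYOC was at 1.88 and 6.12 CPM in the medial and lateral white libraries, against 112 and 77.2 CPM in the medial and lateral red libraries. CPXM2 was at 9.06 and 24.5 CPM in the medial and lateral white libraries, against 144 and 157 CPM in the medial and lateral red libraries.

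**Figure D1:**
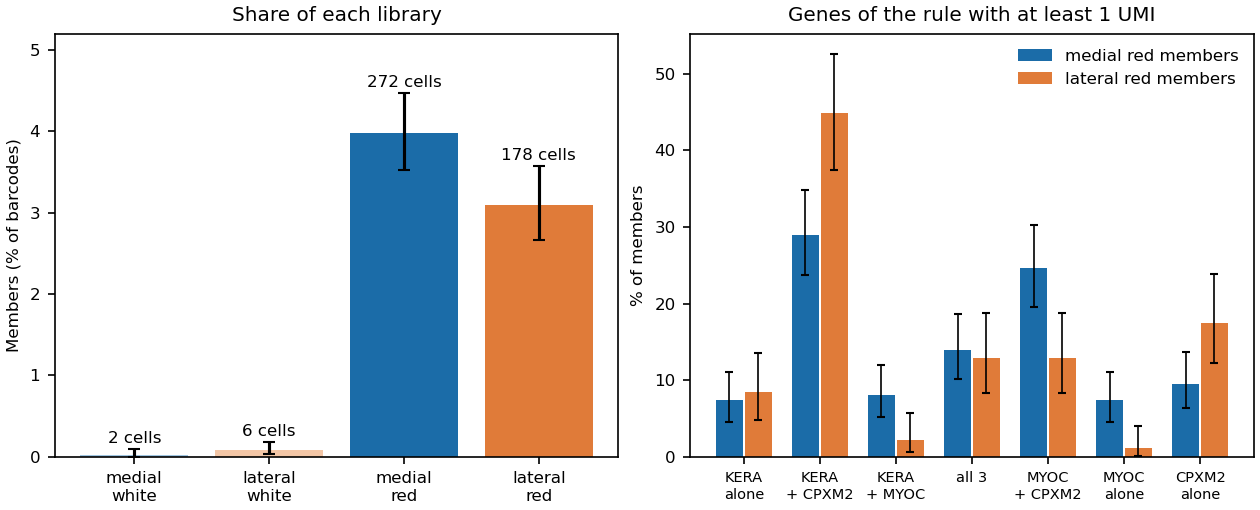
Left, members as a percentage of the barcodes of each library, with exact 95% binomial intervals. Right, percentage of red zone members with at least 1 UMI of each combination of KERA, MYOC and CPXM2, with the same intervals. The red zone bars stand at 3.98% and 3.09%, and members with MYOC make up more of the medial than of the lateral red members.

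The libraries held 14902274 UMIs (medial white), 13719381 (lateral white), 11878284 (medial red) and 9666319 (lateral red), and the members 3372, 12527, 476023 and 379860 of them in that order. Members were somewhat deeper than other barcodes, with a median of 1713 UMIs against 1473 in the medial red library and 1982 against 1445 in the lateral red library. Mitochondrial transcripts made up a median of 2.63% of UMIs in members against 2.53% in other barcodes of the medial red library, and 2.7% against 2.21% in the lateral red library. After each barcode was thinned to 1000 UMIs the rule found 3.17% of medial and 2.19% of lateral red barcodes. Between 10 and 20 barcode sequences were shared by any pair of libraries, and 1 medial red member had a barcode that also occurred in the medial white library. No barcode was a member in more than 1 library.

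The limit on fibrochondrocyte genes decided much of the membership. Of barcodes with 3 or more UMIs of KERA, MYOC and CPXM2 there were 626 in the medial and 383 in the lateral red library. The limit on CILP, CILP2 and OMD alone removed 117 medial and 142 lateral red barcodes, more than the limit on PI16 and MFAP5 (69 and 20) or on CXCL14, CXCL12 and MME (66 and 16). In the white zone it removed 22 of 26 medial and 21 of 27 lateral barcodes, in part together with other limits. Members with 2 UMIs of those fibrochondrocyte genes, just inside the limit, numbered 66 in the medial and 34 in the lateral red library, and had COL1A1 at 59713 and 64180.3 CPM. Barcodes with 3 such UMIs, just outside it, numbered 49 and 35, with COL1A1 at 62469 and 49759.8 CPM.

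At the threshold of the rule itself, members just inside resembled barcodes just outside more than barcodes without the 3 genes. In the medial red library 102 members had exactly 3 UMIs of KERA, MYOC and CPXM2, and 156 barcodes that met all other limits had 2. CRABP1 was at 2759 CPM just inside and 2278 CPM just outside, and SFRP2 at 2885 and 2404 CPM. In the lateral red library 78 members had 3 UMIs and 121 such barcodes had 2, with CRABP1 at 2350.0 CPM inside and 2479 CPM outside and SFRP2 at 1666 and 984 CPM. Barcodes with 0 UMIs of the 3 genes had CRABP1 at 669.6 and 628 CPM and SFRP2 at 914 and 371 CPM in the medial and lateral red libraries.

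KERA, MYOC and CPXM2, which chose the members, were measured as follows. KERA had 649 and 669 CPM in medial and lateral red members, against 104 and 68.8 CPM in the other medial and lateral red barcodes. MYOC had 1145 CPM in medial and 355 CPM in lateral red members, against 69.2 and 65.8 CPM in the other barcodes. CPXM2 had 985 CPM in medial and 1074 CPM in lateral red members, against 108 and 120 CPM in the other barcodes. The KERA and CPXM2 levels of the 2 red libraries were thus close, while the MYOC level of medial members was the higher one. Members held 40.9% of all MYOC UMIs of the medial red library and 18.1% of those of the lateral red library. They held 20.7% and 28.4% of the KERA UMIs and 27.5% and 26.8% of the CPXM2 UMIs, so most transcripts of each gene lay in barcodes outside the limits. By symbol, RefSeq's table of the Sscrofa11.1 assembly places KERA at chr5:91794317-91802362, MYOC at chr9:114087370-114098765 and CPXM2 at chr14:133246521-133376378.

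The 3 other marker genes of these cells were not used by the rule. SFRP2, a secreted modulator of WNT signalling, had 2744 CPM in medial red members against 914 CPM in other barcodes, and 1677 against 458 CPM in the lateral red library. CRABP1, a cytosolic retinoic acid-binding protein, had 3269 against 815 CPM in the medial red library, and 2546 against 829.6 CPM in the lateral red one. COL1A1, which encodes a chain of collagen I, had 54552 against 22241 CPM in the medial red library, and 54673 against 18905 CPM in the lateral red one. On a log2 scale with 5 CPM added, SFRP2 was higher in members by 1.58 (medial, 95% counting interval of the ratio 1.50 to 1.67) and 1.86 (lateral, 1.75 to 1.99). CRABP1 was higher by 2.00 (1.93 to 2.08) and 1.61 (1.52 to 1.71), and COL1A1 by 1.29 (1.28 to 1.31) and 1.53 (1.51 to 1.55). All these intervals, here and below, are exact, belong to the ratio without the added 5 CPM, and cover counting error only.

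Part of the tendon gene list was high in these cells, but not all of it. SCX gave 3 UMIs in the 272 medial red members and 0 in the 178 lateral red members. A count of 0 there allows up to 9.71 CPM as the upper end of the exact 95% Poisson interval. TNMD had 158 CPM in medial red members (75 UMIs in 32 cells) and 23.7 CPM in lateral red members (9 UMIs in 5 cells), against 20.6 and 15.3 CPM in the other barcodes of those libraries. MKX had 137 and 94.8 CPM in medial and lateral red members, against 34.0 and 34.4 CPM in the other barcodes. Of 10 tendon genes outside the rule with an average of 20 CPM or more, 5 were at least 2-fold higher in members than in other barcodes of both red libraries, namely MKX, THBS4, FMOD, COL1A1 and COL1A2, and 0 were lower. Over all 5025 genes at that level, 74 (1.47%) were 2-fold or more higher in both libraries, and 408 (8.12%) were lower.

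Beside fibrochondrocytes none of the 10 measured tendon genes differed 2-fold in the same direction in both libraries. Against the red zone barcodes with 3 or more UMIs of CILP, CILP2 and OMD (276 medial, 483 lateral), 0 of the 10 tendon genes were 2-fold higher in both libraries and 0 were lower, where 1.92% and 1.43% of all 4478 genes were. THBS4, which encodes a matrix glycoprotein of tendon, had 2699 and 2340.3 CPM in medial and lateral red members, against 3601 and 3539.7 CPM in that CILP/CILP2/OMD set. FMOD, the small proteoglycan fibromodulin, had 2643 and 3256 CPM in members against 5944 and 5156 CPM in the set. In the medial library TNMD was over 2-fold higher in members, with 158 CPM against 27.4 CPM in the set. COMP was over 2-fold lower there, with 1947 against 8180.1 CPM. In the lateral library TNMD had 23.7 against 20 CPM and COMP 5789 against 8958 CPM. In direction alone, THBS4, FMOD and COMP were lower in members of both libraries, and TNMD, COL1A1 and COL14A1 were higher. The cells are therefore called KERA/MYOC/CPXM2 fibroblasts or members here, by the genes of the rule, and not tendon cells.

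Collagen I and decorin transcripts, known from fibroblasts, were present in nearly all members. COL1A1 had at least 1 UMI in 100% of the members of both red libraries, against 34.7% and 31.2% of endothelial barcodes (29.5% and 27.3% at 1000 UMIs per barcode), in which such transcripts serve as a measure of free RNA. DCN, the proteoglycan decorin, was seen in 99.3% of medial and 99.4% of lateral red members, against 15.3% and 11.6% of endothelial barcodes. At 1000 UMIs per barcode these shares were 98.7% and 94.8% of members, against 14.5% and 8.46%. COL1A1 was nearly as common in the CILP/CILP2/OMD set, in 98.2% and 99% of its medial and lateral red barcodes without thinning. DCN was seen in 98.9% and 99.2% of them. Of 10 fibroblast genes, COL1A1 and COL1A2 were at least 2-fold higher in members than in other barcodes of both red libraries and 0 lower. Over all genes 1.47% were higher and 8.12% lower. Over the fibroblast sets defined below, COL1A2 and DCN were higher and PDGFRA and LUM lower. Endothelial barcodes had a median of 1712 UMIs in the medial and 1279.5 in the lateral red library. Summed over the marker lists of other cell types, members of the medial and lateral red libraries had 16.8 and 2.63 CPM of 7 endothelial genes, against 801 and 718 CPM in other barcodes. Of these genes VWF, PLVAP and KDR were at 0 in both. The rule itself limits PECAM1, PLVAP and VWF.

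Of other lists, 8 myeloid genes summed to 16.8 and 18.4 CPM in medial and lateral red members, against 1779 and 2083 CPM in other barcodes, and MRC1, CSF1R and TYROBP were at 0 in both. The rule limits C1QA, C1QB and C1QC of this list, ACTA2, MYH11 and RGS5 of the mural list and COL2A1 of the chondrocyte list, so these sums are low in part by choice. The 7 mural genes summed to 105 and 73.7 CPM against 2071 and 2402 CPM, with DES at 0 in both. The 4 skeletal muscle genes that could be matched summed to 0 and 2.63 CPM, and the 4 matched cell cycle genes to 2.1 and 2.63 CPM in members against 58.2 and 18.4 CPM in other barcodes. The only cell cycle gene with any UMI in members was TOP2A. The 9 chondrocyte genes summed to 305 and 503 CPM in members against 311 and 691 CPM in other barcodes, and COL9A1, COL11A2, SNORC, MATN3 and CNMD were at 0 in both red libraries. The erythroid gene HBB was at 23.1 and 26.3 CPM in members against 641 and 913 CPM in other barcodes.

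The 25 genes with the highest ratio of members over other barcodes in both red libraries are described next, beginning with CPZ and COL11A1. They were taken among genes outside the rule with at least 50 CPM in members of both red libraries. CPZ, a secreted metallocarboxypeptidase with a frizzled-like domain, had 452 CPM in medial red members against 108 CPM in other barcodes, and 297 against 58.8 CPM in the lateral red library. Its log2 ratio was 2.01 (1.84 to 2.27) and 2.25 (2.03 to 2.63). COL11A1, a chain of the minor fibrillar collagen XI, had 1002 against 204 CPM in the medial red library and 974 against 270.0 CPM in the lateral red one, a log2 ratio of 2.27 and 1.83. With 1000 UMIs per barcode CPZ was seen in 31.9% of medial and 21.4% of lateral red members against 2.34% and 0.385% of endothelial barcodes, and COL11A1 in 51.7% and 51.4% of members against 2.62% and 1.73%. Without thinning, CPZ was seen in 46.3% and 38.2% of members against 5.11% and 0.817% of endothelial barcodes, and COL11A1 in 68% and 75.3% against 5.91% and 2.18%. Both genes lay far above that background. In the CILP/CILP2/OMD set COL11A1 was nearly as high as in members, at 671 and 759 CPM in the medial and lateral red libraries. It was seen in 57.2% and 63.8% of that set's barcodes without thinning. CPZ was lower in the set, at 128 and 117 CPM.

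The 25 also held genes known from WNT signalling and retinoid handling. One was RSPO2, a secreted R-spondin that enhances WNT signalling, with 69.3 and 103 CPM in medial and lateral red members against 18.4 and 26.3 CPM in other barcodes. RBP4, the secreted retinol-binding protein, had 101 and 55.3 CPM in members against 28.0 and 14.4 CPM in other barcodes. In the CILP/CILP2/OMD set RSPO2 was near the level of members, at 79.9 and 67.7 CPM, while RBP4 had 9.13 and 2.22 CPM. CRABP1 and SFRP2, described above, were among the 25 too. RSPO2 rested on 33 and 39 UMIs and RBP4 on 48 and 21 UMIs in members, so that their intervals reached 1.34 to 2.45 and 1.44 to 2.46 for RSPO2 and 1.38 to 2.29 and 1.20 to 2.61 for RBP4.

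Several of the 25 encode matrix proteins or secreted proteins that bind the matrix. MGP, the matrix Gla protein that inhibits calcification, had 26343 and 16114 CPM in medial and lateral red members against 8893 and 4631 CPM in other barcodes. COL1A2 had 67131 and 67483 CPM in members against 22566 and 21608 CPM in other barcodes. CLEC3B, which encodes the plasminogen-binding protein tetranectin, had 5418 and 5660 CPM against 2047 and 1924 CPM. SERPINF1, the secreted factor PEDF, had 3844 and 3504 CPM in members against 1470.1 and 1219.8 CPM in other barcodes. The proteoglycans SPOCK1 and SPOCK2 and the matricellular protein SMOC2 had log2 ratios between 1.59 and 2.04 in the 2 libraries. All 3 are of the SPARC-related kind, with extracellular calcium-binding domains.

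The rest of the 25 were of more mixed kinds. PTN, the growth factor pleiotrophin, had 895 and 1435 CPM in medial and lateral red members against 350 and 367 CPM in other barcodes. IL11RA, the receptor of interleukin 11, had 96.6 and 84.2 CPM in members against 34.9 and 27.4 CPM in other barcodes. DBP, a transcription factor of the circadian clock output, had 239 and 182 CPM in members against 86.8 and 68.7 CPM. CHPF, which takes part in building chondroitin chains, had 124 and 129 CPM in members against 45.3 and 35.5 CPM. FAM180A, FAM180B, ISM1, ITGBL1, GOLIM4, CCDC3 and STEAP1 had log2 ratios between 1.33 and 2.05. MKX was the only tendon transcription factor among the 25, with log2 ratios of 1.86 and 1.34. STEAP1 was lower in members than in the PI16/MFAP5 set defined below, with 60.9 and 55.3 CPM against 69.2 and 71.7 CPM. ITGBL1 had 884 and 808 CPM in medial and lateral red members against 616 and 829 CPM in that set.

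**Figure D2:**
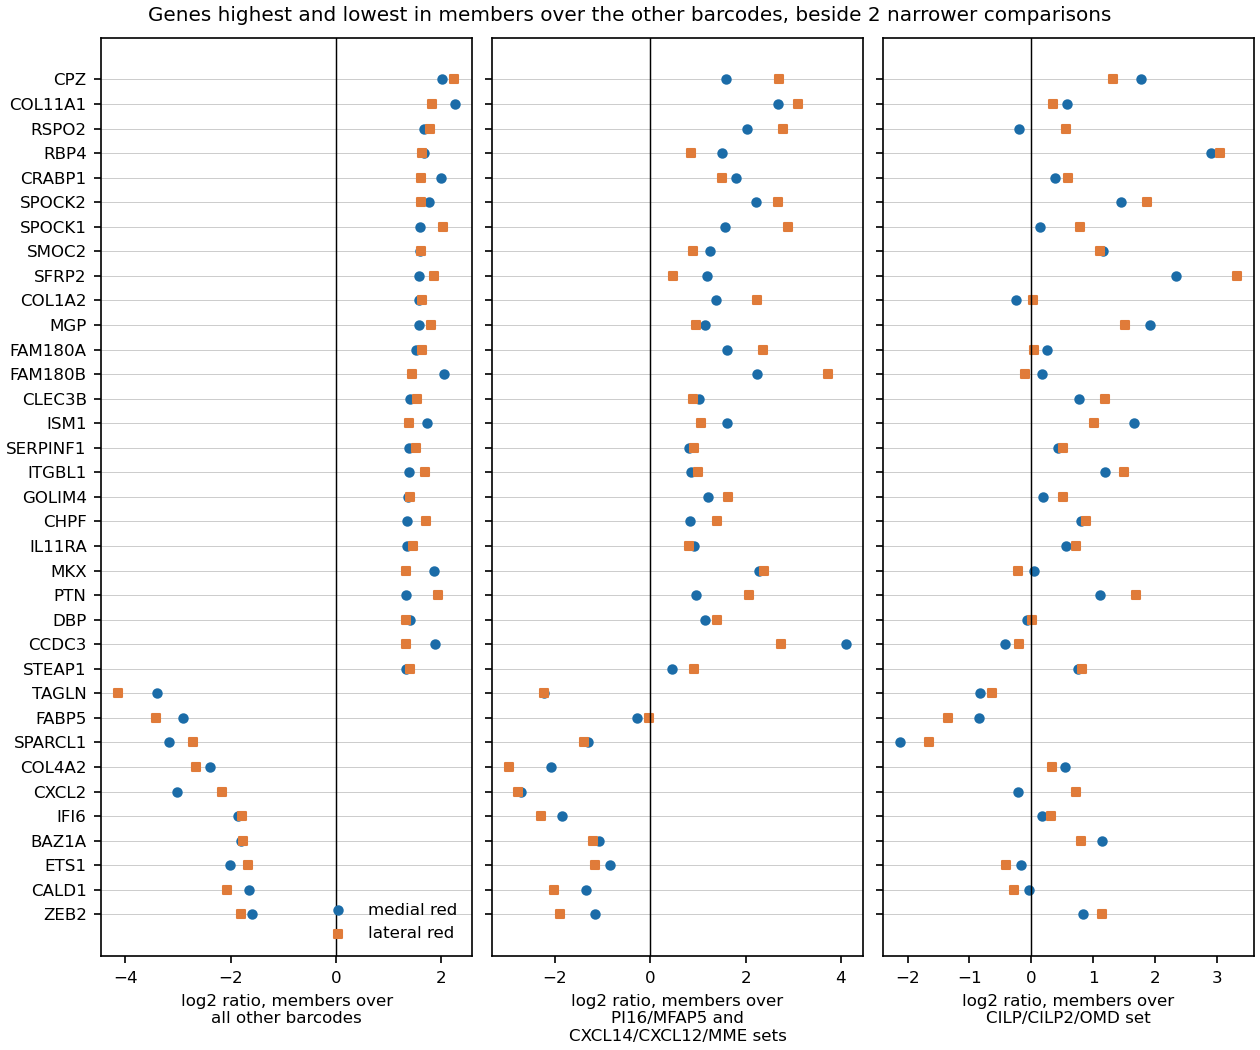
Log2 ratio of members over all other barcodes (left), over the PI16/MFAP5 and CXCL14/CXCL12/MME sets (middle) and over the CILP/CILP2/OMD set (right) for the 25 genes highest and the 10 genes lowest in members over other barcodes, with circles for the medial and squares for the lateral red library. The left panel shows the values that chose the genes, among those with at least 50 CPM in members of both red libraries. In the right panel COL1A2, MKX, FAM180A, FAM180B and DBP lie near 0 while RBP4, SFRP2, CPZ, SPOCK2 and MGP stay above 1.

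The 10 genes with the lowest ratios were also taken among genes with at least 50 CPM in members of both red libraries. Genes below that level, such as HBB, could have lower ratios. The 10 included genes known from smooth muscle, basement membrane and chemokine or interferon responses. TAGLN, an actin-binding protein of smooth muscle, had 79.8 and 57.9 CPM in medial and lateral red members against 894 and 1101 CPM in other barcodes. The basement membrane collagen gene COL4A2 had 52.5 and 50 CPM in members against 299 and 341 CPM in other barcodes. CXCL2, a chemokine that attracts neutrophils, had 116 and 237 CPM in members against 975 and 1083 CPM. IFI6, an interferon-induced gene, had 1519 and 1416 CPM in members against 5527 and 4893 CPM. FABP5, SPARCL1, BAZ1A, ETS1, CALD1 and ZEB2 were the other 6, with log2 ratios between -3.41 and -1.59. Against the CILP/CILP2/OMD set only SPARCL1 of the 10 was 2-fold lower in both red libraries, with log2 ratios of -2.13 and -1.66. TAGLN had log2 ratios of -0.83 and -0.64 over that set. In direction alone, COL4A2, IFI6, BAZ1A and ZEB2 were higher in members of both libraries than in the set. The set had 135 and 142 CPM of CXCL2 and 1342 and 1137 CPM of IFI6 in the medial and lateral red libraries.

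Most inflammatory genes were low in members beside all other barcodes, while beside the comparison sets the picture was mixed. Of 16 inflammatory genes with an average of 20 CPM or more, 10 were at least 2-fold lower in members than in other barcodes of both red libraries and 0 higher. The median log2 ratio was -2.15 in the medial and -1.61 in the lateral red library, against -0.24 and -0.20 over all genes. IL6 had 2.1 and 36.9 CPM (1 and 14 UMIs) in medial and lateral red members, against 85.0 and 153 CPM in other barcodes. CCL2, a chemokine for monocytes, had 14.7 and 23.7 CPM in members against 318 and 342 CPM, and VCAM1, an adhesion molecule for leukocytes, had 63.0 and 86.9 CPM in members against 226 and 265 CPM. Against the other fibroblast sets defined below, 6 of 12 such genes were lower in members and 0 higher, where 3.91% and 1.24% of all 4837 genes were. Against the CILP/CILP2/OMD set, 0 of 9 were lower and 2 higher (VCAM1 and C3), where 1.43% and 1.92% of all 4478 genes were. The summed level of the list was 1763 and 2604 CPM in medial and lateral red members, near the 1889 and 3533 CPM of the PI16/MFAP5 set and the 1862 and 2502 CPM of the CILP/CILP2/OMD set. Only the CXCL14/CXCL12/MME set was far higher, with 5108 and 7103 CPM. Of 18 immediate-early and heat-shock genes, which are known to respond to tissue dissociation, 2 were lower in members than in other barcodes (ATF3 and HSPA6) and 0 higher, a share near the 8.12% of all genes that were lower.

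Among small leucine-rich proteoglycans, the family of keratocan, members differed from all other barcodes and less from the CILP/CILP2/OMD set. Of 9 measured genes outside the rule, 3 were at least 2-fold higher in members than in other barcodes of both red libraries (FMOD, OGN and PRELP) and 0 lower, with a median log2 ratio of 1.08 in the medial and 0.88 in the lateral red library. Over all genes 1.47% were higher and 8.12% lower. Against the CILP/CILP2/OMD set 0 of 9 were higher and 1 lower (CHAD), and in that set FMOD and PRELP were higher than in members, with 3372 and 2973 CPM of PRELP, and LUM was low, with 251 and 221 CPM. LUM, lumican, the nearest relative of keratocan in sequence, had 462 and 521 CPM in medial and lateral red members against 1035 and 835 CPM in other barcodes. OGN, osteoglycin, had 645 and 532 CPM in members against 302 and 224 CPM. PRELP, which anchors collagen to basement membranes, had 1235 and 1635 CPM in members against 576 and 789 CPM. ASPN, asporin, differed between the red libraries, with 309 CPM in medial members against 449 CPM in other barcodes, and 739.7 against 401 CPM in the lateral red library.

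Among 20 genes of fibrillar collagens and their processing, 3 were at least 2-fold higher in members than in other barcodes (COL1A1, COL1A2 and BMP1, a procollagen C-proteinase) and 1 lower (COL5A3), with median log2 ratios of 0.28 and 0.88. COL3A1, the chain of collagen III, had 7037 CPM in medial red members against 10856 CPM in other barcodes, and 10599 against 7935 CPM in the lateral red library. Collagen I genes were thus higher in members of both libraries, while COL3A1 was below the other barcodes in the medial and above them in the lateral library. LOX, the enzyme that starts collagen cross-links, had 836 and 1145 CPM in medial and lateral red members against 427 and 539 CPM in other barcodes. Of 12 other collagens, COL16A1 was higher and COL18A1, COL4A1 and COL4A2 were lower. Of 13 elastic fibre genes, FBLN1, fibulin 1, was higher, with 889 and 900.3 CPM in members against 430.2 and 257 CPM, and EFEMP1 was lower. Over all genes 1.47% were higher and 8.12% lower, so 1 lower gene of 20 or of 13 is near that share.

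In the family of CPXM2, 2 of the few measured genes were higher in members and 1 was lower. Of 5 measured metallocarboxypeptidase genes outside the rule, CPZ and AEBP1 were at least 2-fold higher in members than in other barcodes of both red libraries and CPE was lower. AEBP1, a collagen-binding relative without known need for enzyme activity, had 2319 and 2051 CPM in medial and lateral red members against 1137 and 976 CPM in other barcodes. CPE, which processes peptide hormones, had 14.7 and 5.27 CPM in members (7 and 2 UMIs) against 66.7 and 51.5 CPM. In the family of MYOC and the related angiopoietin-like genes, OLFML3 was higher, with 338 and 347 CPM in members against 137 and 115 CPM, and OLFML2A lower, of 8 measured. Over all genes 1.47% were higher and 8.12% lower. With lists this short, 1 gene in a direction says little about the list.

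For secreted WNT modulators, 1 of 5 measured genes was higher in members than in other barcodes (SFRP2) and 0 lower. For genes of retinoic acid binding and turnover, 2 of 10 were higher (CRABP1 and RBP4) and 0 lower. Over all genes 1.47% were higher and 8.12% lower, which applies to each of these lists. For TGF-beta and BMP genes, 0 of 16 were higher and 1 lower (TGFB1), near that share. For the IGF system, 0 of 6 were higher and 3 lower (IGFBP2, IGFBP4 and IGFBP7). For matrix proteases and their inhibitors, SERPINF1 was higher and 6 of 17 were lower, among them PLAU, the urokinase protease, with 88.2 and 31.6 CPM in medial and lateral red members against 387 and 416 CPM in other barcodes. For hypoxia and glycolysis genes, 0 of 13 were higher and 0 lower. The direction of PLAU depended on the comparison. Over the fibroblast sets defined below, 0 of 15 protease and inhibitor genes were higher and 5 lower, PLAU among them. Of all genes 1.24% were higher and 3.91% lower there. Over the CILP/CILP2/OMD set PLAU and MMP2 were 2-fold or more higher in members and TIMP3 lower, of 13 measured. Of all genes 1.92% were higher and 1.43% lower in that comparison.

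Members were then set beside the 3 kinds of barcode that the rule holds apart, each cut with the same limits and at most 1 UMI of KERA, MYOC and CPXM2. The PI16/MFAP5 set, with 3 or more UMIs of those genes, had 467 medial and 124 lateral red barcodes. The CXCL14/CXCL12/MME set, with 5 or more, had 474 and 344. The CILP/CILP2/OMD set, described above, had 276 and 483. The first 2 are together called the fibroblast sets. Their mix differs between the red libraries, and its part in the ratios below was not tested. Over the fibroblast sets, 60 of 4837 genes (1.24%) were at least 2-fold higher in members of both red libraries and 189 (3.91%) lower. Over the CILP/CILP2/OMD set, 86 of 4478 genes (1.92%) were higher and 64 (1.43%) lower. The 10 genes per direction named next were ranked after the values had been seen.

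**Figure D3:**
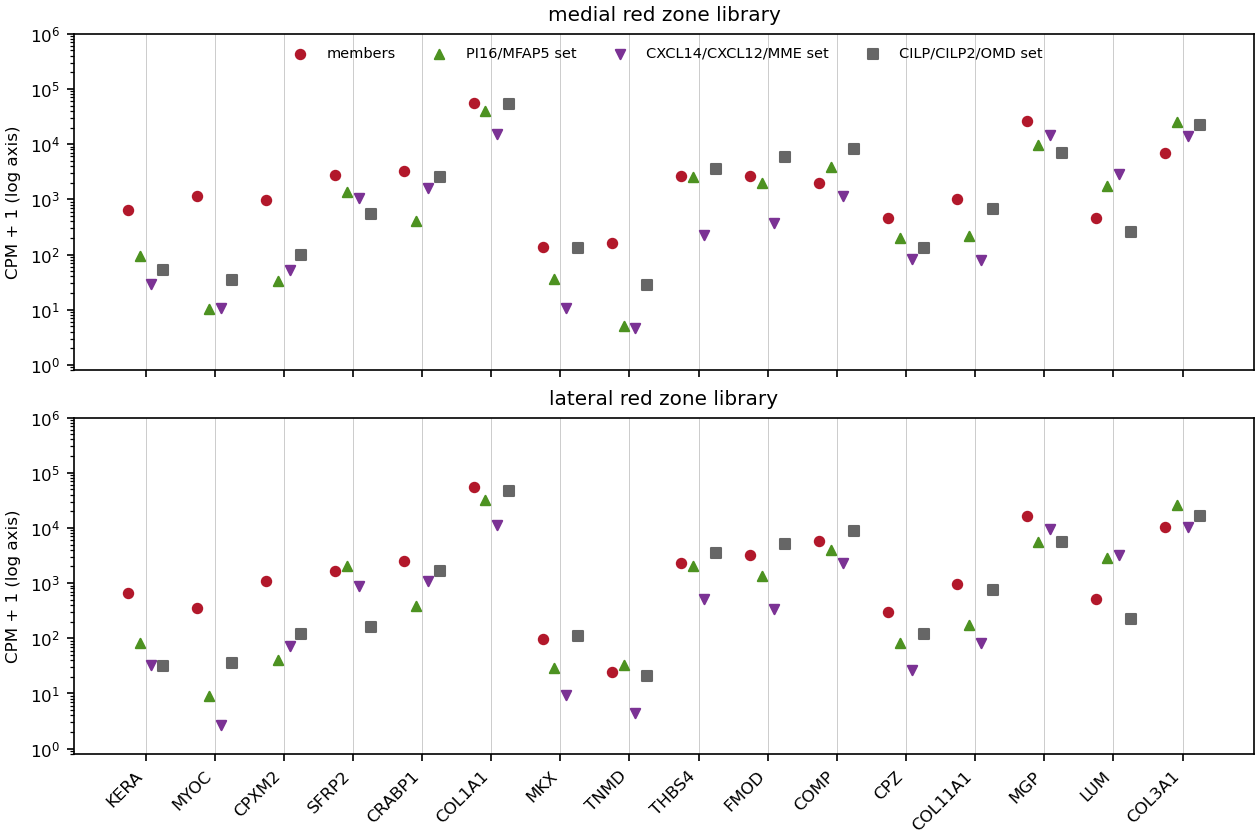
CPM of 16 genes in members and in the 3 comparison sets of the medial (top) and lateral (bottom) red library, on a log axis with 1 CPM added. Members lie close to the CILP/CILP2/OMD set for COL1A1, MKX and CRABP1, and apart from it for SFRP2, MGP and CPZ.

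Over the fibroblast sets, the genes highest in members included matrix genes also known from cartilage and a few secreted factors. HAPLN1, the link protein that joins aggrecan to hyaluronan, had 199.6 and 405 CPM in medial and lateral red members against 22.3 and 49.4 CPM in the fibroblast sets. CHAD, chondroadherin, had 248 and 192 CPM in members against 44.0 and 18.8 CPM. ANGPTL7, a secreted angiopoietin-like protein known from the eye, had 901 and 147 CPM in members against 4.46 and 7.06 CPM in the fibroblast sets. FIBIN, HPS5, ANGPTL5, CCDC3, COL11A1, NDUFA4L2 and MKX were the others, with log2 ratios between 2.29 and 5.45. MKX had 24.0 and 14.1 CPM in the fibroblast sets.

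The genes lowest in members over the fibroblast sets included ones of lipid transport, chemokines and complement. APOE, the lipid carrier, had 58.8 and 31.6 CPM in medial and lateral red members against 1019 and 2551 CPM in the fibroblast sets. CCL19, a chemokine for lymphocytes, had 109 and 15.8 CPM in members against 946 and 1697 CPM. C4A, of the complement cascade, had 39.9 and 21.1 CPM in members against 333 and 672 CPM. IL6, CCL2, SERPINE2, TPPP3, IGFBP2, CFD and FGL2 were the others, with log2 ratios between -5.29 and -2.73. LUM was also lower, with 2269 and 3066 CPM in the fibroblast sets. CXCL14, CXCL12, PI16 and MFAP5 were limited by the rule and are not counted.

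Over the CILP/CILP2/OMD set, SFRP2 and MGP were again higher in members. SFRP2 had 538 and 162 CPM in the medial and lateral red barcodes of the set, which gives log2 ratios of 2.34 (2.15 to 2.56) and 3.33 (3.11 to 3.64) for members. MGP had 6893 and 5624 CPM in the set, with log2 ratios of 1.93 and 1.52. MMP2, a gelatinase, had 956 and 779 CPM in medial and lateral red members against 333 and 277 CPM in the set. CCDC80, C1QTNF6, EBF1, FAM13C, ISG12(A), ANGPTL4 and FBLN2 were the others, with log2 ratios between 1.56 and 2.42. EBF1, a transcription factor of mesenchymal and B lineage cells, had 118 and 116 CPM in members against 34.2 and 26.6 CPM.

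Genes lower in members than in the CILP/CILP2/OMD set included cartilage genes. S100A1, a calcium-binding protein of chondrocytes and muscle, had 16.8 and 23.7 CPM in medial and lateral red members against 518 and 377 CPM in the set. GREM1, a BMP antagonist, had 8.4 and 7.9 CPM in members against 125 and 124 CPM. SPP1, osteopontin, had 221 and 71.1 CPM in members against 1798 and 1510.2 CPM, and FRZB, a secreted WNT antagonist of cartilage, had 58.8 and 65.8 CPM against 319 and 317 CPM. CKB, NET1, PROCR, ATP1B1, THBS1 and FIBIN were the others. Of 7 cartilage matrix genes, 0 were higher and 4 lower in members (ACAN, CLEC3A, MIA and SOX9). ACAN, aggrecan, had 204 and 379 CPM in medial and lateral red members against 819 and 833 CPM in the set. FIBIN was thus above the fibroblast sets and below the CILP/CILP2/OMD set, with 233 and 216 CPM in members, 22.9 and 14.1 CPM in the fibroblast sets and 951 and 1083 CPM in the CILP/CILP2/OMD set.

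The 3 genes of the rule were seen in members in varying combinations. As a member needs only 3 UMIs of the 3 genes together, and the median member of both red libraries had 4, the rule and the low counts largely set how often they were seen together. CPXM2 had at least 1 UMI in 77.2% of medial and 88.2% of lateral red members, KERA in 58.5% and 68.5%, and MYOC in 54% and 29.2%. All 3 were seen together in 14% of medial members (exact 95% binomial interval 10.1 to 18.7) and 12.9% of lateral members (8.37 to 18.8). KERA was seen in 40.8% of the medial members with a MYOC UMI, against 79.2% of those without, and in 51.9% against 75.4% of lateral members. A member without MYOC needs 3 UMIs of the other 2 genes, so the rule itself favours this order. MYOC UMIs reached 21 in 1 medial and 15 in 1 lateral cell, while no red zone member had more than 5 KERA UMIs. With 1000 UMIs per barcode, MYOC was seen in 46.6% and 19.1% of medial and lateral red members against 1.52% and 0.577% of endothelial barcodes. KERA was then seen in 45% and 46.2% of members against 1.66% and 0.962%, and CPXM2 in 63.4% and 67.6% against 2.34% and 1.54%. This left 238 of 272 medial and 173 of 178 lateral red members with enough UMIs.

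Members were split by the rule gene with the most UMIs. KERA led in 60 medial and 48 lateral red members, MYOC in 91 and 14, CPXM2 in 95 and 97, and 26 and 19 were tied. MYOC-led cells were 33.5% of medial members (27.9 to 39.4) and 7.87% of lateral members (4.37 to 12.8). MYOC counts are part of the rule and each red zone is 1 library, so these shares, with intervals for counting error only, describe the 2 libraries. KERA-led members had a median of 1821 and 1936 UMIs in the medial and lateral red libraries, CPXM2-led members 1625 and 1997, and MYOC-led members 1779 and 1836. The lateral MYOC-led values below rest on 14 cells and 24177 UMIs. The genes named were ranked by both libraries after the values had been seen, or come from the lists. Log2 ratios of these groups were taken with 20 CPM added.

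KERA-led members had more LUM, COL3A1 and POSTN in both red libraries. LUM had 819 CPM in KERA-led against 144 CPM in MYOC-led medial members, and 609 against 124 CPM in lateral members, with log2 ratios of 2.35 (1.83 to 3.24) and 2.13 (0.69 to 4.61). COL3A1 had 12488 against 2398 CPM in medial and 14936 against 8562 CPM in lateral members. POSTN, the matricellular protein periostin, had 493 against 37.6 CPM in medial and 936 against 331 CPM in lateral members. FBLN2, fibulin 2, had 261 against 50.1 CPM in medial members, and 209 against 41.4 CPM in lateral members, where the MYOC-led value is 1 UMI and the interval ran from -0.29 to 7.70. CYP1B1, a cytochrome P450 enzyme that acts on retinoids and steroids, had 214 against 18.8 CPM in medial members and 336 CPM against 0 UMIs in lateral members. SFRP2 had 4569 against 977 CPM in medial members, and 1463 against 1075 CPM in lateral members with an interval from -0.16 to 1.10.

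MYOC-led members had more THBS4, CCN2, FIBIN, CCDC3 and HAPLN1 in both red libraries. THBS4 had 1684 CPM in KERA-led and 4326 CPM in MYOC-led medial members, and 2199 and 3557 CPM in lateral members, a log2 ratio of -1.35 and -0.69. CCN2, a matricellular protein induced by TGF-beta and by load, had 1182 and 2617 CPM in KERA-led and MYOC-led medial members and 1617 and 3392 CPM in lateral members. FIBIN had 83.7 and 407 CPM in medial, and 209 and 496 CPM in lateral members, and CCDC3 had 177 and 701 CPM and 263 and 662 CPM. HAPLN1 had 37.2 and 313 CPM in medial members and 236 and 538 CPM in lateral members. FOS, an immediate-early gene, was in the same group, with 735 and 1966 CPM in KERA-led and MYOC-led medial members and 391 and 910.0 CPM in lateral members. COL1A1 differed less and not in 1 direction, with 47505 and 57990.2 CPM in medial and 63495 and 45249.6 CPM in lateral members. CPXM2-led members lay between the other groups for LUM, COL3A1 and POSTN in the medial library, with 590.3, 8270.4 and 242 CPM.

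Some genes that were high in the CILP/CILP2/OMD set were higher in MYOC-led members, and others were not. That set was above all members together in THBS4, FIBIN, CCDC3 and HAPLN1, with 566 and 368 CPM of CCDC3 and 732 and 676 CPM of HAPLN1 in its medial and lateral red barcodes, against 418 and 321 CPM of CCDC3 and 199.6 and 405 CPM of HAPLN1 in members. MYOC itself was higher with more CILP, CILP2 and OMD UMIs, at 852, 1239 and 1504 CPM in medial members with 0, 1 and 2 such UMIs and 1723 CPM in the barcodes with 3 just outside the limit. In the lateral red library these levels were 278, 370.0, 500.3 and 927 CPM. COMP, also higher in the set than in members, was at 1936 and 2022 CPM in KERA-led and MYOC-led medial members. In lateral members it was at 5887 and 5915 CPM. COL3A1 was higher in the set too, at 22605 and 16686 CPM, but was higher in KERA-led than in MYOC-led members. The part of fibrochondrocyte transcripts in the difference between KERA-led and MYOC-led members was not tested.

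**Figure D4:**
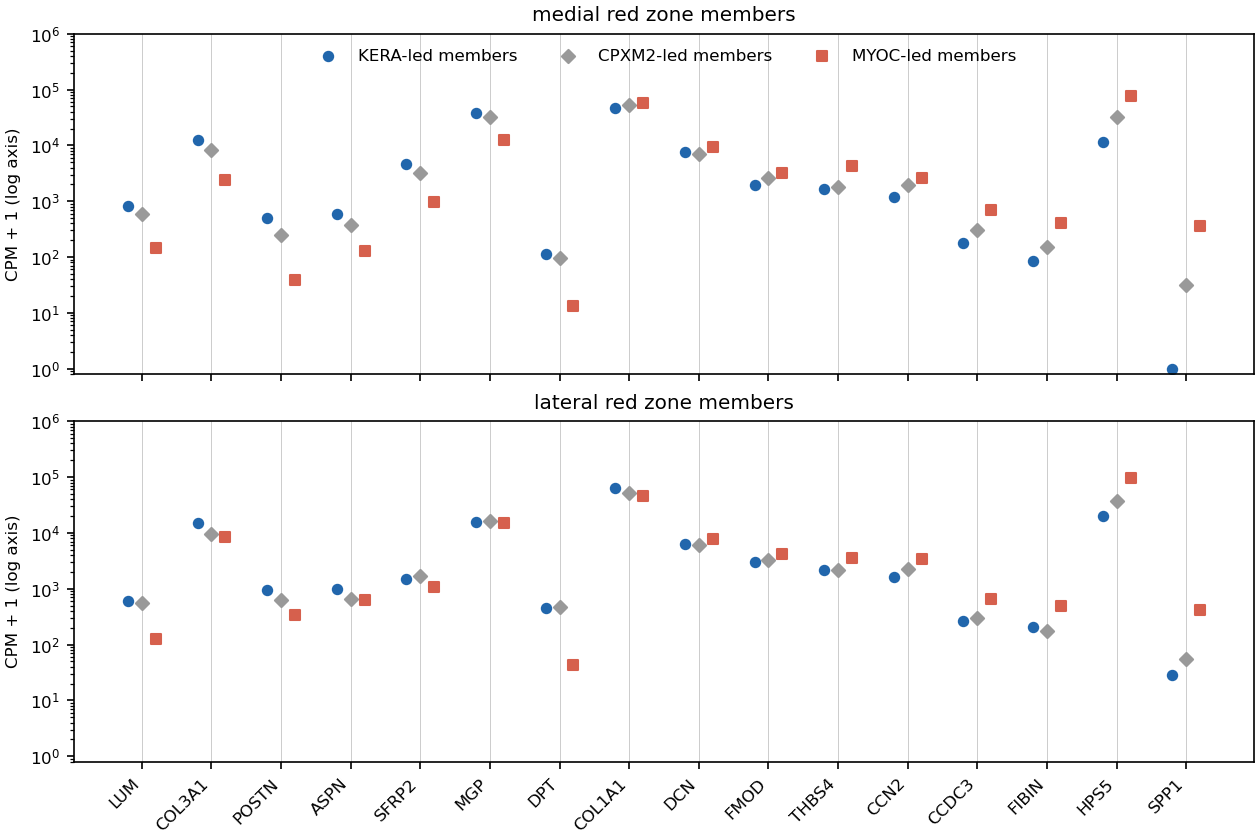
CPM of 16 genes in red zone members led by KERA, CPXM2 or MYOC, medial library on top and lateral library below, on a log axis with 1 CPM added. From LUM to DPT the KERA-led circles lie above the MYOC-led squares in both libraries, and from DCN to SPP1 the squares lie above the circles.

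A very large signal was counted to HPS5, a gene of lysosome-related organelle biogenesis. HPS5 had 11297 CPM in KERA-led, 32069 CPM in CPXM2-led and 75169 CPM in MYOC-led medial members, and 19769, 37253 and 96289.9 CPM in those of the lateral red library. Up to 485 HPS5 UMIs stood in 1 medial and 650 in 1 lateral member. Over the fibroblast sets the log2 ratio of members was 5.45 and 2.85, with 43193 and 37287 CPM in medial and lateral members against 981 and 5168 CPM. Over the CILP/CILP2/OMD set, HPS5 was neither among the 10 genes highest in members nor among the 10 lowest. Its level in that set is not given here, so the signal cannot be called particular to members. RefSeq's Sscrofa11.1 table places HPS5 at chr2:40906785-40938847, and the next genes to it there are the serum amyloid A genes SAA1P, SAA2, SAA4 and SAA3, for which no count is given here. Which transcript these reads came from was not tested, so the values stand for reads counted to HPS5.

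Of 4536 genes with an average of 20 CPM or more in members, 128 (2.82%) were at least 2-fold higher in medial members and 133 (2.93%) lower, with a median log2 ratio of -0.00. These counts compare 2 libraries and have no replicate check, and the difference between members and other barcodes was not tested. The genes named, 5 higher and 4 lower, are among the largest changes of genes averaging 50 CPM or more.

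ANGPTL7 had 901 CPM in medial and 147 CPM in lateral red members, a log2 ratio of 2.57 (2.21 to 3.04), while the other barcodes had 102 and 79.6 CPM. The CILP/CILP2/OMD set had 561 and 282 CPM, a smaller difference in the same direction (0.98, 0.74 to 1.25), and its lateral level was above that of lateral members. The signal was concentrated, since the 10 members with the most held 52.7% of medial and 87.5% of lateral ANGPTL7 UMIs. At 1000 UMIs per cell, 20.2% of medial and 5.78% of lateral members had an ANGPTL7 UMI, against 1.52% and 0% of endothelial barcodes (22.1% and 9.55% of members against 1.82% and 0.272% without thinning). TNMD had a log2 ratio of 2.50 (1.73 to 3.92) between medial and lateral red members and 0.34 in the other barcodes. ANGPTL7 and TNMD were lowest in KERA-led members of the medial library. ANGPTL7 had 242 CPM in KERA-led, 982 CPM in CPXM2-led and 1246 CPM in MYOC-led members. TNMD had 46.5, 180.2 and 207 CPM in that order, with 5 UMIs in KERA-led members. In the lateral library ANGPTL7 was not lowest in KERA-led members, with 273 CPM there, 102 CPM in CPXM2-led and 207 CPM in MYOC-led members. Lateral TNMD gave only 1, 5 and 2 UMIs in these groups.

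SFRP4, a secreted WNT modulator, had 174 CPM in medial and 31.6 CPM in lateral red members, and 361 and 40.7 CPM in the other barcodes, so this difference ran through the whole library. CCL19 had 109 and 15.8 CPM and SPP1 221 and 71.1 CPM in medial and lateral members. In the other barcodes CCL19 had 1008 and 910.1 CPM and SPP1 232 and 358 CPM, so SPP1 ran the other way there. In the fibroblast sets both genes were lower in the medial than in the lateral red library. In members SFRP4, CCL19 and SPP1 each rested on few cells. SFRP4 was seen in 25 medial and 8 lateral members, with 24 of 83 medial UMIs in 1 cell. CCL19 was seen in 10 medial and 5 lateral members, with 19 of 52 medial UMIs in 1 cell, and 37 of 105 medial SPP1 UMIs were in 1 cell.

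DPT, TNFAIP6, PIK3C2G and SCRG1 were lower in medial than in lateral red members. DPT, dermatopontin, which binds decorin and collagen, had 65.1 CPM in medial and 411 CPM in lateral red members, a log2 ratio of -2.57 (-3.26 to -2.09), while the other barcodes had 128 and 167 CPM. It had 31 UMIs in the 272 medial and 156 UMIs in the 178 lateral members. TNFAIP6, a hyaluronan-binding protein induced by inflammation, had 128 and 416 CPM in medial and lateral members against 165 and 214 CPM in the other barcodes. PIK3C2G had 4.2 and 97.4 CPM in medial and lateral members against 9.12 and 19.3 CPM in the other barcodes. It rested on 2 medial and 37 lateral UMIs, with an interval of the log2 ratio from -7.63 to -2.58. SCRG1 rested on 5 medial and 39 lateral UMIs in members. SCRG1 had 10.5 and 103 CPM in members, and was also over 2-fold lower in the other medial barcodes, with 39.6 CPM against 95.5 CPM in the lateral ones. Among the tendon genes, COMP and TNC were also 2-fold or more lower in medial members, with 1947 and 5789 CPM of COMP and 952 and 2119 CPM of TNC in medial and lateral red members. Both were lower in the other medial barcodes as well, with 1697 against 3299 CPM of COMP and 499 against 936 CPM of TNC in the lateral ones.

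**Figure D5:**
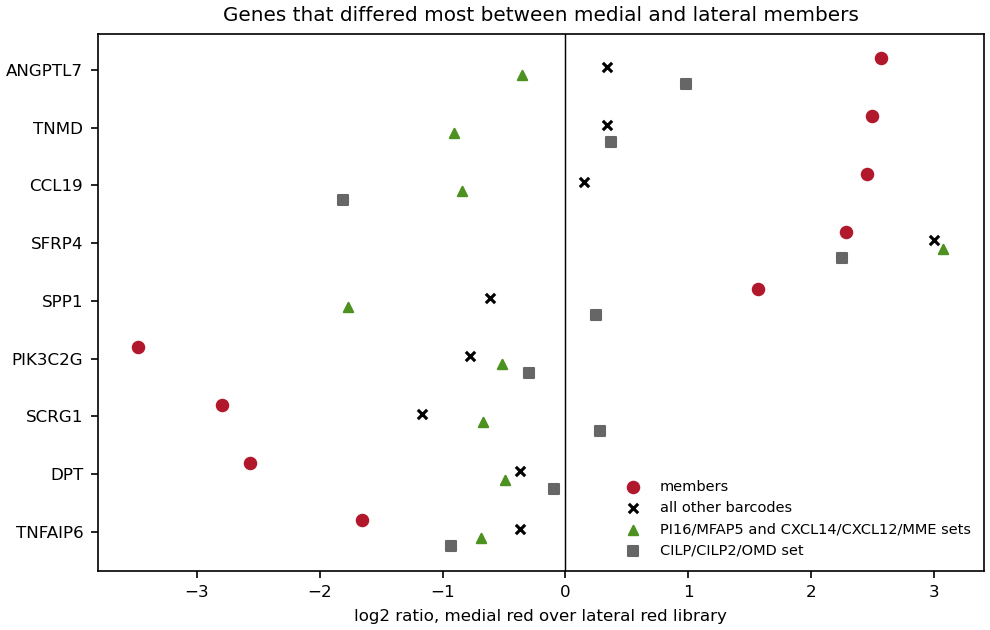
Log2 ratio of the medial over the lateral red library for the 9 named genes, in members and in the other barcodes, the fibroblast sets and the CILP/CILP2/OMD set. SFRP4 is above 2 in members and in all other groups, while for ANGPTL7, TNMD, DPT and PIK3C2G the members lie away from the other sets.

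The 8 white zone members were few but each could be read. The 2 medial white members had 1787 and 1585 UMIs, with 4 CPXM2 UMIs and no KERA or MYOC in the first and 3 KERA UMIs and no MYOC or CPXM2 in the second. They had 43 and 31 COL1A1 UMIs and 0 UMIs of CRABP1, SFRP2 and COMP. The 6 lateral white members had 738 to 2919 UMIs, of which 4 had MYOC, 5 had CPXM2 and 2 had KERA. Each of these 6 had CRABP1, with 1 to 7 UMIs, and COMP, with 6 to 17 UMIs, and 3 had 1 SFRP2 UMI. In 1 of them COL2A1, the cartilage collagen, had 12 of 2647 UMIs, close to the limit of the rule. With so few cells no comparison of gene levels between white and red members was made.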

How the data were processed

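Per the submitters' processing notes, Cell Ranger 6.1.2 and the genome build Sscrofa11.1 were used, and the labels' protocols give a droplet-based 3' kit. The deposited files hold whole-number UMI counts per gene and barcode, as the authors left them after their own barcode filter. Of 21280 features, 14811 carried a symbol in the files, 688 took one from a reference table and 5781 kept an identifier. All barcodes were used, with the minimum of 200 genes applied in the membership rule. The members, the 36 gene lists (318 of 336 genes matched) and the comparison sets were chosen with earlier results of these data known.

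Counts of members and other barcodes were summed per library and scaled to CPM. Log2 ratios had 5 CPM added, and a gene counted as higher or lower at 2-fold in both red libraries, among genes averaging 20 CPM. Named genes had a symbol and at least 50 CPM in red members, and were the 25 highest and 10 lowest by the weaker of the 2 red libraries, plus the 5 largest differences per direction between menisci and the fixed lists. Of those differences, 1 gene is not reported here. Intervals are exact at 95%. The edgeR tests planned for zone and meniscus needed 20 members per library, which the white libraries did not reach, so no test was run and no p-value is given. Scrublet (scanpy 1.11.5) called 1 barcode in each red and 0 in each white library, so it did not work here and no doublets were removed. 2 lateral red members exceeded 3 times the median UMIs of that library's members, and their doublet status was not tested. The ratio calculation was tested on simulated data. Python 3.11.15, numpy 2.4.6, scipy 1.17.1 and pandas 2.3.3 were used.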

Additional observations from a re-analysis of the deposited data

How the results depend on the processing

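Shares of members moved with the membership threshold. At 2 UMIs of KERA, MYOC and CPXM2 they were 0.0897% and 0.298% in the medial and lateral white libraries and 6.26% and 5.2% in the medial and lateral red libraries. At 5 UMIs they were 0% and 0.0135% against 1.62% and 1.11%. After thinning to 1000 UMIs they were 0% and 0.0326% against 3.17% and 2.19%. Removing barcodes with low UMIs or high mitochondrial content, or those with the highest Scrublet scores, gave 0.0256% to 0.0273% and 0.072% to 0.0813% in the white, and 3.99% to 4.14% and 3.1% to 3.21% in the red libraries. In each setting both red shares exceeded both white ones. Against other fibroblasts, 189 genes were lower in members in place of 408. With 20 CPM added, 49 were higher in place of 74. With 1 red library left out a gene had to pass in the other only, and 134 to 184 genes were higher and 612 to 622 lower. Of the 35 named genes, which these ratios chose, 28 moved by more than the SD between the 2 red libraries against other fibroblasts, 18 after thinning and 17 at 5 UMIs. FABP5 had log2 ratios of only -0.29 and -0.02 over other fibroblasts in the medial and lateral red libraries. The zone and meniscus tests were not run under any setting, since even at 2 UMIs the medial white library had 7 members. No paired analysis was possible because the tests that the replicate block belongs to had too few white zone members to run. Within each meniscus the white share was below the red one. Depth limits genes with few UMIs in members, above all the 14 lateral members led by MYOC.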
